A study of Mus musculus with 61 samples.

Results

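The comparison set wild-type (WT) mouse embryonic stem cells (mESCs) newly derived from blastocysts against E14 mESCs, an established line that is also wild type by its label, with 3 libraries each. It covered every gene with a normalized count of at least 1 in at least 3 of these 6 libraries, which were 12391 of the 18396 genes in the table of the whole series. The other 6005 genes were not tested. The study asked what the zinc-finger protein ZFP708 does in oocytes, early embryos and mESCs, in 61 libraries of 12 groups, and used each of the cell types here only as the control of another. The WT mESCs were the control of *Zfp708* knockout (KO) mESCs, which were maternal and zygotic null, and the E14 mESCs were the control of E14 mESCs overexpressing (OE) ZFP708. By the study's methods, newly derived lines came from E3.5 blastocysts, were grown on embryonic fibroblast feeders in 2i medium and were then adapted to gelatin without feeders, and the labels give a culture in LIF and serum. The strain, the passage number and the medium at harvest are not given in the sources used here, so line, genetic background and culture history cannot be told apart. The study describes independently isolated mESC lines for its methylation assay, but no source used here ties these to the sequenced libraries or states whether the E14 libraries are separate cultures, so p-values measure only the spread between these samples.

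mESCs hold a pluripotent state in culture. In medium with serum and LIF they resemble a mix of naive cells, like those of the early epiblast, and cells that edge towards differentiation, while 2i medium, which inhibits MEK and GSK3, lowers ERK signalling, raises WNT signalling and gives a more uniform naive state with less DNA methylation. Established lines also differ from new ones in genetic background, in passage-related changes of chromosomes and imprints, and in deliberate selections made when the line was founded.

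The 6 libraries held between 14848257 and 16654314 reads in genes, and 1 read was worth between 0.0518 and 0.0581 normalized counts in them. Normalized counts are reads divided by a library's size factor and are not corrected for gene length, so that levels are compared here between libraries of a gene and not between genes. Pairs of E14 libraries had a mean chi-square per gene of 1.07 to 1.12, close to the 1 that counting noise alone gives. Among WT mESCs, libraries 1 and 3 had a mean chi-square of 3.15, and library 2 stood apart from both, at 32.9 and 33.0. WT library 2 was at least 2-fold away from both other WT libraries in 169 of 7309 genes, 87 higher and 82 lower, against 0 genes for WT library 1 and 6 for WT library 3. Calls of a change used limma on log2(normalized count + 1) with the Benjamini-Hochberg adjustment over all genes tested and a threshold of 0.05, and fold changes (log2FC) are on that scale, which understates the change of low genes. Because the spread within E14 was that of counting, a call says that WT and E14 libraries differed beyond a very small spread.

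Of the 12391 genes, 7512 (60.6%) differed, 3263 (26.3%) higher and 4249 (34.3%) lower in WT mESCs. Most of these differences were small. The median absolute log2FC of called genes was 0.619, and 39.5% of them were under 0.5. With a change of at least 2-fold added to the rule, 715 genes (5.77%) were higher and 1372 (11.1%) lower. All 3 WT libraries lay above all 3 E14 libraries in 3833 genes (30.9%) and below them in 4851 genes (39.1%). The median log2FC over all genes was -0.06. Genes that passed the filter through a single group had to differ: 179 genes reached 1 in WT libraries only, of which 176 were higher, and 516 in E14 libraries only, of which 510 were lower. Among the 11043 genes at 1 or more in all 6 libraries, 2996 (27.1%) were higher and 3446 (31.2%) lower. At the edge of the filter, *Lrrc46* was just inside with a third-highest value of 1.00 and *Tktl2* just outside with 0.988. Without WT library 2, 4308 genes were higher and 5384 lower.

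**Figure D1:**
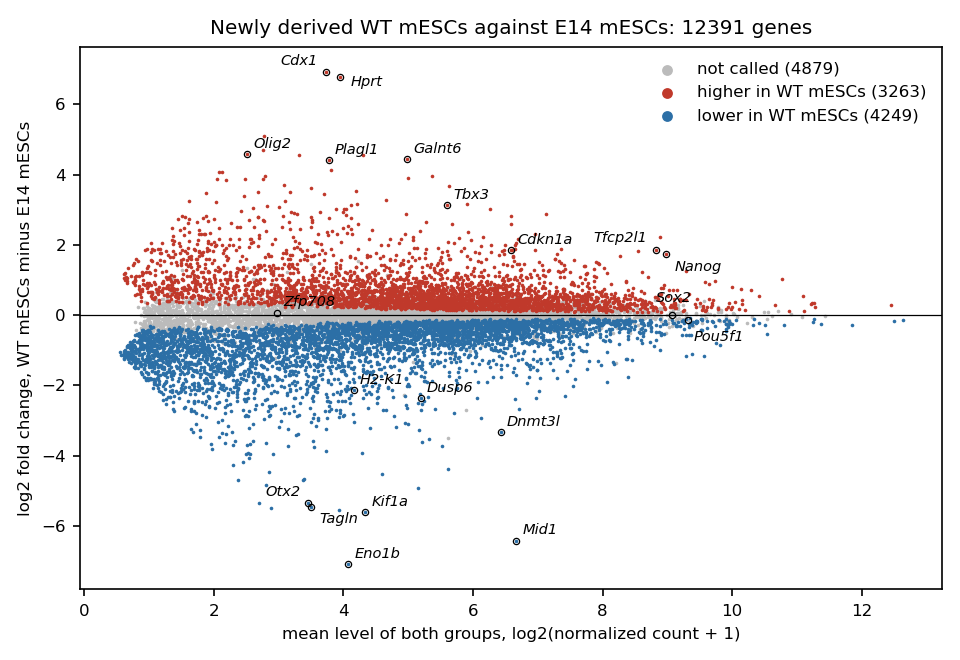
Log2 fold change of WT over E14 mESCs (vertical axis) against the mean level of both groups (horizontal axis, log2 of normalized count + 1) for the 12391 genes tested, with called genes coloured by direction and leading genes named. Called genes lie on both sides at all levels, most of them close to the line of no change, and the named genes reach 6.93 for *Cdx1* and -7.09 for *Eno1b*.

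Several genes checked what the cells were. *Pou5f1*, the transcription factor that defines pluripotent cells, had 586, 660 and 571 normalized counts in WT mESCs against 662, 668 and 676 in E14 mESCs. All WT libraries were below all E14 libraries, and the difference did not pass the test (log2FC -0.15, adjusted p = 0.0632). *Sox2*, its partner, had 619, 402 and 612 in WT mESCs and 530, 529 and 537 in E14 mESCs, with overlapping groups (adjusted p = 0.976). *Xist*, the RNA that silences an X chromosome in female cells, was at or under 0.604 in all 6 libraries. *Zfp708* itself, on chromosome 13 (mm9, 67170336 to 67198912), had 7.11, 6.95 and 7.14 in WT mESCs and 6.35, 6.63 and 7.03 in E14 mESCs. Its groups overlapped, and the difference did not pass the test (adjusted p = 0.483).

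*Hprt*, the purine salvage enzyme on chromosome X (50341314 to 50374836) whose loss was selected in E14Tg2a, a widely used E14 subline, separated the cells. It had 165, 159 and 156 normalized counts in WT mESCs against 0.741, 0.155 and 0.581 in E14 mESCs. The 3 WT libraries were close together, and each E14 library was under 1. The log2FC was 6.77 ± 0.16 (SE, adjusted p = 2.19e-06), a 325-fold ratio of the means. *Hprt* passed the filter through WT libraries alone and so had to differ. Libraries outside the comparison fell on the same sides, with 200, 149 and 146 in KO mESCs against 0.697, 0.524 and 0.629 in OE mESCs.

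The largest increase was in *Cdx1* (chromosome 18, 61178516 to 61195853), a homeobox gene of the caudal family that responds to WNT and retinoic acid. It had 150, 111 and 179 normalized counts in WT mESCs against 0.159, 0.363 and 0.0581 in E14 mESCs (log2FC 6.93 ± 0.19, adjusted p = 3.33e-06). E14 mESCs held 11 reads of it in all, and WT mESCs 8176. After *Hprt* came *Hal*, which encodes the first enzyme of histidine breakdown, with 31.7, 56.2 and 30.6 in WT mESCs against 0.159, 0.0518 and 0.233 in E14 mESCs (log2FC 5.09). The neighbouring oligodendrocyte-lineage genes *Olig2* and *Olig1* were both higher, by a log2FC of 4.59 and 3.97. *Olig2* had 25.8, 18.7 and 38.2 in WT mESCs, and E14 mESCs held 8 reads in all. The rule that named these genes required every WT library to lie above every E14 library, which held for 30.9% of all genes tested. *Cdx1*, *Hal* and *Olig2* passed the filter through WT libraries alone and so had to differ.

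Other genes among the largest increases were steadier between WT libraries. *Galnt6* (chromosome 15, 100522244 to 100559807), an enzyme that starts O-linked glycosylation, had 144, 147 and 151 in WT mESCs against 5.71, 5.70 and 5.93 in E14 mESCs (log2FC 4.45 ± 0.05, adjusted p = 5.18e-07). *Calcoco2*, an autophagy receptor, had 120, 124 and 127 in WT mESCs against 6.82, 7.41 and 7.61 in E14 mESCs. *Zfhx2*, a zinc-finger homeobox gene, had 166, 159 and 165 in WT mESCs against 8.94, 8.75 and 10.8 in E14 mESCs. *Galnt6*, *Calcoco2* and *Zfhx2* were also named for their small p-values, a choice that itself favours a small spread within groups. *Kit*, the receptor of stem cell factor, was among the genes with the smallest p-values, with 270, 239 and 253 in WT mESCs against 36.5, 34.1 and 35.3 in E14 mESCs (log2FC 2.81, adjusted p = 1.85e-06). *Arl14epl*, *Plagl1* and *Myo1f* were also among the largest increases, with log2FC of 4.56, 4.41 and 4.12.

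The largest decrease was in *Eno1b* (chromosome 18, 48204989 to 48208032), a near-identical copy of the glycolytic gene *Eno1*, with 0.316, 0.642 and 0.384 in WT mESCs against 198, 192 and 197 in E14 mESCs (log2FC -7.09 ± 0.10, adjusted p = 5.18e-07). Reads shared between the copies make this level uncertain. *Mid1* (chromosome X, 166123129 to 166443668), a ubiquitin ligase gene that spans the boundary of the pseudoautosomal region in mice, had 6.64, 11.4 and 12.3 in WT mESCs against 930, 928 and 907 in E14 mESCs (log2FC -6.42). The genes named for the largest decreases were taken only from genes with every WT library below every E14 library, 39.1% of all genes. *Kif1a*, a motor for vesicle transport in axons, had 2.53, 1.18 and 2.09 in WT mESCs against 141, 137 and 135 in E14 mESCs. *Slc39a8*, a zinc and manganese importer, had 0.158, 0.107 and 0.0549 in WT mESCs against 48.5, 46.9 and 49.8 in E14 mESCs. These low WT values stood for 6 reads in all. *Kbtbd11*, *Kcnj3*, *Fxyd6*, *Thbs1*, *Enpp2* and *Fndc3c1* had log2FC between -4.68 and -5.53, and *Kcnj3* and *Enpp2* had 1 read each in the 3 WT libraries together. *Eno1b*, *Slc39a8*, *Kcnj3*, *Thbs1* and *Enpp2* passed the filter through E14 libraries alone and so had to differ. Thrombospondin 1, the product of *Thbs1*, is a matrix protein, and *Enpp2* encodes autotaxin, which makes lysophosphatidic acid.

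A few genes had reads in a single group. *Ubd*, a ubiquitin-like modifier that cytokines induce, had 8.48, 8.77 and 8.29 normalized counts in WT mESCs and no reads in E14 mESCs, at least 157-fold higher against a floor of 3 reads over the group. In the other direction, *Arhgef38* had no reads in WT mESCs against 3.70, 4.56 and 4.82 in E14 mESCs, at least 81.3-fold lower. These genes were chosen after their values were seen.

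Naive pluripotency genes keep mESCs in the state of the early epiblast. Of 18 tested, 11 were higher and 4 lower in WT mESCs, with a median log2FC of 0.35, beside 26.3% higher and 34.3% lower over all genes. *Nanog* (chromosome 6, 122657507 to 122664651), counted in the core list, had 888, 1045 and 854 in WT mESCs against 275, 275 and 278 in E14 mESCs (log2FC 1.74 ± 0.08, adjusted p = 1.34e-05). Each WT library was above 3 times the E14 level. *Tfcp2l1* (chromosome 1, 120524522 to 120581744), a naive factor downstream of LIF, had 844, 929 and 812 in WT mESCs against 237, 236 and 236 in E14 mESCs (log2FC 1.86). *Tbx3* (chromosome 5, 120120678 to 120134733), a T-box factor of the same layer, had 127, 169 and 135 in WT mESCs against 14.8, 16.0 and 15.5 in E14 mESCs (log2FC 3.13, adjusted p = 6.54e-06). The rise of *Tbx3* was the largest in this list. *Prdm14*, a repressor of FGF signalling and of de novo DNA methylation, had 67.2, 62.9 and 55.1 in WT mESCs against 12.2, 13.1 and 13.5 in E14 mESCs. *Nr5a2* and *Esrrb*, nuclear receptors that keep *Pou5f1* and *Nanog* on, rose by a log2FC of 1.03 and 0.46. *Lifr*, the receptor subunit for LIF, went the other way, with 41.5, 50.2 and 39.9 in WT mESCs against 75.8, 75.2 and 75.7 in E14 mESCs. In an alternative run the most similar libraries were averaged into 1 sample each (the E14 libraries, and WT libraries 1 and 3). Fewer naive genes were called there in each direction. That run left 1 E14 sample, so its spread came from the averaged WT, KO and OE mESC libraries, here and in the lists below.

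The 15 core pluripotency genes showed no common direction, with 4 higher and 6 lower (median log2FC -0.15), beside 26.3% and 34.3% of all genes. *L1td1*, an RNA-binding protein of pluripotent cells, had 327, 348 and 326 in WT mESCs against 666, 661 and 665 in E14 mESCs. *Utf1*, a chromatin factor of undifferentiated cells, had 127, 172 and 123 in WT mESCs against 245, 248 and 243 in E14 mESCs. *Dppa2*, which opens chromatin at early developmental genes, was higher, at 74.8, 92.9 and 80.2 in WT mESCs and 43.6, 43.6 and 44.2 in E14 mESCs. In none of these genes did the groups overlap. Averaging the similar libraries left 2 higher and 2 lower in this list.

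**Figure D2:**
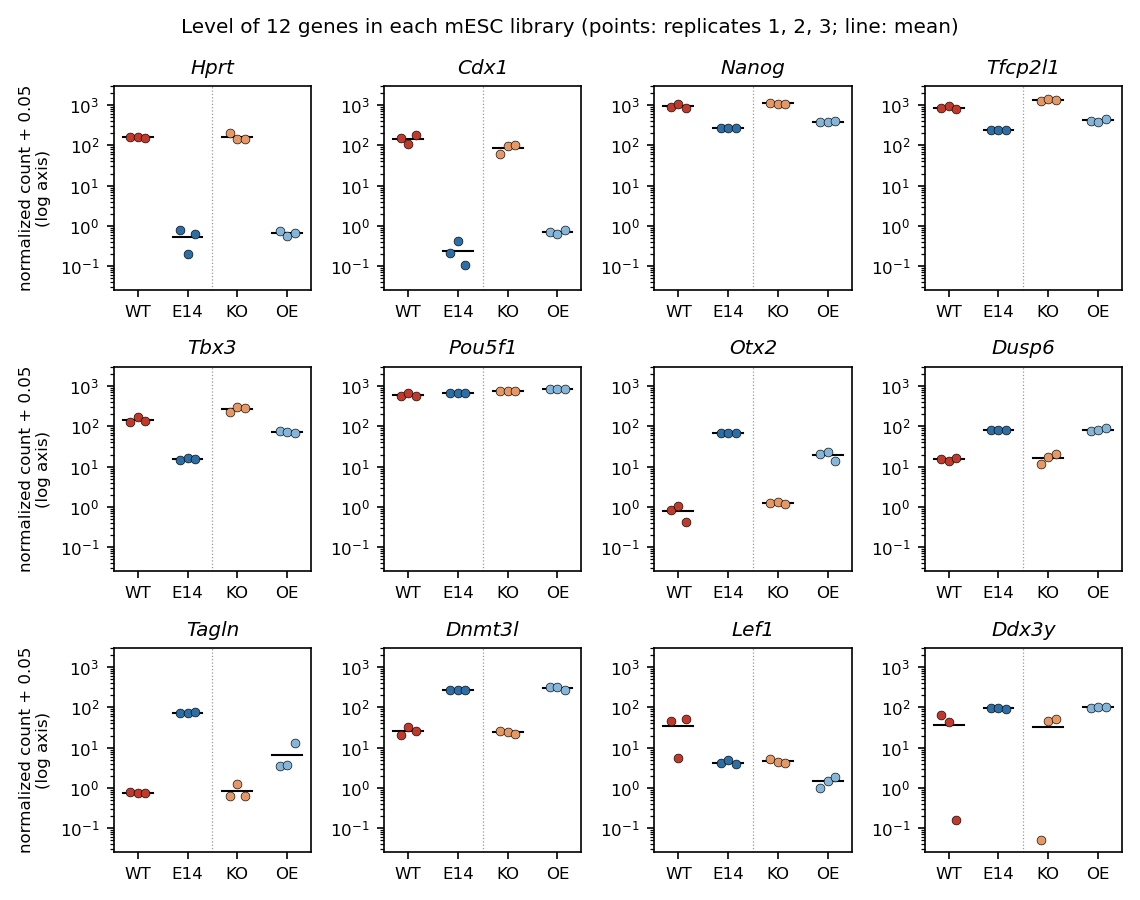
Normalized counts of 12 genes in each library (vertical axis, log scale, value + 0.05), with WT, E14, KO and OE mESCs side by side, 1 point per library and a line at the mean. *Nanog*, *Tfcp2l1* and *Tbx3* are higher and *Otx2*, *Dusp6*, *Tagln* and *Dnmt3l* lower in all 3 WT libraries than in all 3 E14 libraries, *Pou5f1* differs little, and *Lef1* and *Ddx3y* are split within WT mESCs.

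ERK signalling leaves a mark of immediate early genes and feedback inhibitors that damp the pathway. Of 17 such genes tested, 11 were lower and 2 higher in WT mESCs (median log2FC -0.79), beside 34.3% lower and 26.3% higher over all genes. *Egr1*, an immediate early transcription factor, had 0.474, 0.535 and 0.329 in WT mESCs against 16.7, 15.7 and 16.6 in E14 mESCs (log2FC -3.59 ± 0.10, adjusted p = 3.2e-06). *Dusp6* (chromosome 10, 98725865 to 98730122), the phosphatase that inactivates ERK in the cytoplasm, had 15.4, 13.9 and 16.2 in WT mESCs against 82.4, 82.2 and 80.4 in E14 mESCs (log2FC -2.36). *Dusp4*, a nuclear phosphatase of the same family, had 3.37, 4.87 and 3.84 in WT mESCs against 75.3, 74.4 and 76.0 in E14 mESCs. All libraries of each group kept to their own side, and *Egr1*, which passed the filter through E14 libraries alone, had to differ. *Spry4* and *Spry1*, which block receptor signalling to RAS, had log2FC of -3.60 and -1.57, and *Myc* had -2.01. The exceptions included *Etv5*, an ETS factor that FGF induces, chosen after its values were seen, with 296, 233 and 276 in WT mESCs against 203, 206 and 204 in E14 mESCs (log2FC 0.39). With the similar libraries averaged, 8 were lower and 0 higher in this list.

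WNT targets were higher where they passed the test, with 1 exception. Of 10 tested, 5 were higher and 1 lower (median log2FC 1.05), beside 26.3% higher and 34.3% lower over all genes. *Cdx1* passed the filter through WT libraries alone and *Rnf43* through E14 libraries alone, so both had to differ. Among the 8 at 1 or more in all 6 libraries, 4 were higher and 0 lower. *Axin2*, a feedback inhibitor that WNT induces, had 44.4, 20.3 and 49.3 in WT mESCs against 5.24, 5.39 and 5.93 in E14 mESCs (log2FC 2.49 ± 0.32, adjusted p = 0.000837). *Notum*, which inactivates WNT ligands, had 52.7, 22.0 and 60.1 in WT mESCs against 12, 12.3 and 12.1 in E14 mESCs. In both, WT library 2 was the lowest of the WT libraries and still above all of E14. *Lef1*, a DNA-binding partner of beta-catenin, had 46.4, 5.46 and 51.1 in WT mESCs against 4.02, 4.76 and 3.84 in E14 mESCs (log2FC 2.28 ± 0.79, adjusted p = 0.044), and *Sp5*, a direct WNT target, had 25.2, 5.35 and 34.3 in WT mESCs against 2.70, 3.26 and 2.62 in E14 mESCs. For both genes WT library 2 lay close to E14, and their calls were lost when WT library 1, WT library 3 or any E14 library was left out (adjusted p between 0.0969 and 0.127 for *Lef1* and between 0.0531 and 0.064 for *Sp5*). *Rnf43*, which removes WNT receptors from the surface, was the gene that was lower, at 0.895, 0.374 and 0.549 in WT mESCs and 1.75, 2.23 and 1.69 in E14 mESCs. Leaving out any of these 5 libraries left 3 higher genes in the list, and averaging the similar libraries left 2.

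Among 12 BMP, Nodal and ID genes, 4 were higher and 6 lower, beside 26.3% and 34.3% of all genes. *Id2* and *Id1*, inhibitors of helix-loop-helix factors that BMP induces, were lower. *Id2* had 3.27, 1.55 and 2.75 in WT mESCs against 48.9, 47.1 and 53 in E14 mESCs (log2FC -3.88 ± 0.19, adjusted p = 2.22e-05). *Id1* had 3.32, 6.63 and 4.83 in WT mESCs against 29.5, 29.9 and 31.8 in E14 mESCs. Both groups were clear of each other for these genes. *Nodal*, a ligand of the activin pathway, was higher, with 56.0, 77.8 and 56.6 in WT mESCs against 35.4, 33.6 and 32.3 in E14 mESCs, while *Lefty2*, the Nodal inhibitor and target, had 29.0, 66.3 and 37.4 in WT mESCs against 217, 220 and 224 in E14 mESCs. *Smad7*, an inhibitor within the cell, was higher by a log2FC of 0.63. With similar libraries averaged, 2 were higher and 3 lower.

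Of 9 primed and early lineage genes tested, 3 were higher and 4 lower, beside 26.3% and 34.3% of all genes. *Gsc* passed the filter through WT libraries alone and *Fgf5* through E14 libraries alone, so both had to differ. *Otx2* (chromosome 14, 49277354 to 49287319), the homeobox factor that drives the exit to formative pluripotency, had 0.790, 1.02 and 0.384 in WT mESCs against 69.2, 66.8 and 67.3 in E14 mESCs (log2FC -5.33 ± 0.15, adjusted p = 3.01e-06). *Fgf5*, a marker of the primed epiblast, had 0.527, 0.321 and 0.220 in WT mESCs against 8.68, 8.96 and 9.53 in E14 mESCs. Neither gene reached the E14 range in any WT library. *Gsc* and *Eomes*, transcription factors of mesendoderm, were higher, with *Gsc* at 6.48, 5.46 and 4.39 in WT mESCs against 0.317, 0.518 and 0.116 in E14 mESCs, and *Eomes* at 11.4, 18.7 and 13.2 in WT mESCs against 4.81, 4.61 and 4.07 in E14 mESCs. *Zic2* was also higher (log2FC 1.20), and *Nes*, an intermediate filament of neural progenitors, was lower (log2FC -1.58).

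Markers of other cell types that mESC cultures can hold were low or mixed. Of 9 primitive endoderm genes, 3 were higher and 5 lower, beside 26.3% and 34.3% of all genes. Among the 7 at 1 or more in all 6 libraries, 3 were higher and 3 lower. With E14 library 2 or 3 left out, 3 of the 9 were lower. *Gata6*, which defines that lineage, was at or under 1.26 in all 6 libraries and was not tested, and *Gata4* had 3.85, 7.44 and 3.57 in WT mESCs against 1.32, 1.24 and 1.57 in E14 mESCs. Of 8 trophectoderm genes, 2 were higher and 3 lower. Among the 7 at 1 or more in all 6 libraries, 2 were higher and 2 lower. *Krt19*, *Krt8* and *Krt18*, keratins of simple epithelia, were lower in WT mESCs, with log2FC of -3.92, -2.44 and -2.66, and *Tfap2c*, which is also a factor of naive cells, was higher (log2FC 1.97). *Krt19* passed the filter through E14 libraries alone and so had to differ. *Cdx2*, which defines trophectoderm, had 7.22, 0.321 and 9.61 in WT mESCs against 0.106, 0 and 0.174 in E14 mESCs and was not tested, since WT library 2 was under 1. No gene of the list of 2-cell-like cells passed the filter.

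For embryonic fibroblast feeders, on which the new lines had been grown, 4 of 11 tested genes were higher and 5 lower, beside 26.3% and 34.3% of all genes. Among the 8 at 1 or more in all 6 libraries, 4 were higher and 2 lower. *Postn* and *Lum* had no reads in all 6 libraries. *Col1a1*, the main collagen of fibroblasts, had 0.421, 1.18 and 0.604 in WT mESCs against 3.39, 2.95 and 4.13 in E14 mESCs, and *Thy1* and *Mmp2* were also lower (log2FC -2.37 and -2.93). *Thy1* passed the filter through E14 libraries alone and so had to differ. *Vim*, the intermediate filament vimentin, was higher, with 278, 183 and 256 in WT mESCs against 61.1, 64.9 and 65.5 in E14 mESCs (log2FC 1.87), as were *Fbln2*, a matrix protein, and *Fn1*, fibronectin (log2FC 0.72 for both). The feeder markers named here thus went in both directions. The summed level of the list was 1989 to 2217 in WT mESCs and 1230 to 1236 in E14 mESCs. *Fn1* alone gave 1744, 1541 and 1548 of it in WT mESCs and 982, 969 and 973 in E14 mESCs. In bulk samples, fewer cells of a type and less RNA per cell cannot be told apart.

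Genes of the contractile cytoskeleton were the only list here in which every tested member was called in the same direction. Serum response factor (SRF), with its actin-sensing partners, switches on smooth muscle genes through a DNA element called the CArG box, and the cofactor YAP drives a related set. All 10 tested genes of this list were lower in WT mESCs, by at least 2-fold each, with a median log2FC of -2.13, beside 34.3% of all genes lower. Of these, 4 passed the filter through E14 libraries alone and so had to differ, and the 6 that reached 1 in all libraries were all lower as well. *Tagln* (chromosome 9, 45737711 to 45744141), which encodes the actin-binding protein transgelin, had 0.737, 0.695 and 0.714 in WT mESCs against 71.4, 74.5 and 76.3 in E14 mESCs (log2FC -5.45 ± 0.07, adjusted p = 5.18e-07). *Acta2*, smooth muscle actin, had 0.0527, 0 and 0.110 in WT mESCs, from 3 reads, against 12.7, 15.1 and 13.2 in E14 mESCs. *Myl9*, the regulatory light chain of smooth muscle myosin, had 0.632, 0.856 and 0.494 in WT mESCs against 18.8, 20.2 and 21.3 in E14 mESCs. These 3 genes were near the detection limit in every WT library. *Tpm1*, a tropomyosin, had 53.9, 67.2 and 61.1 in WT mESCs against 268, 277 and 273 in E14 mESCs, and *Ctgf*, a YAP target, had 27.2, 22.3 and 25.2 in WT mESCs against 106, 111 and 112 in E14 mESCs. WT libraries were split in *Tagln2*, with 42.0, 125 and 46.7 in WT mESCs against 139, 134 and 139 in E14 mESCs. For that gene WT library 2 lay close to E14.

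Promoters of this list are shown because its members moved together. In windows from 250 bases before to 50 after each start site, from RefSeq (GRCm38.p6), 9 of the 12 genes in the file were matched, and 2 of them, *Myl9* and *Cnn2*, held a CArG box when both strands were searched, against 1.63% of 32851 windows (535) in the table. The other matched genes, among them *Acta2* and *Tpm1*, held none in their windows. *Tagln* and *Ctgf* were among the genes without a matched window. *Cnn2*, a calponin, had 21.2, 36.1 and 23.1 in WT mESCs against 106, 101 and 102 in E14 mESCs. The *Myl9* window is chr2:156775214-156775513 (plus strand) and the *Cnn2* window chr10:79988350-79988649 (plus strand). Capitals mark the CArG box, which starts 161 bases before the start site in *Myl9* and 56 before it in *Cnn2*. A match describes the letters and not binding.
Myl9: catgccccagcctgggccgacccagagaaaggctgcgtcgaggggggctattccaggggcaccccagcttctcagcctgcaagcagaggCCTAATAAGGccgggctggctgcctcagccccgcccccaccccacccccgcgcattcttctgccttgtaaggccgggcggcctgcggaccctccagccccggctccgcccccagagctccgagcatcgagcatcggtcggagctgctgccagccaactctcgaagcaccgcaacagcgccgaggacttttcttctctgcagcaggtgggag
Cnn2: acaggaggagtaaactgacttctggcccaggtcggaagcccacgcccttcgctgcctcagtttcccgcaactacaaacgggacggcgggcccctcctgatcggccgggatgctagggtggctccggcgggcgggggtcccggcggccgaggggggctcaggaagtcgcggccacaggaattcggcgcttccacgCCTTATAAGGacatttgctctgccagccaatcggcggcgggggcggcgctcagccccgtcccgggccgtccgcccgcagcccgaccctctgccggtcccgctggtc

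**Figure D3:**
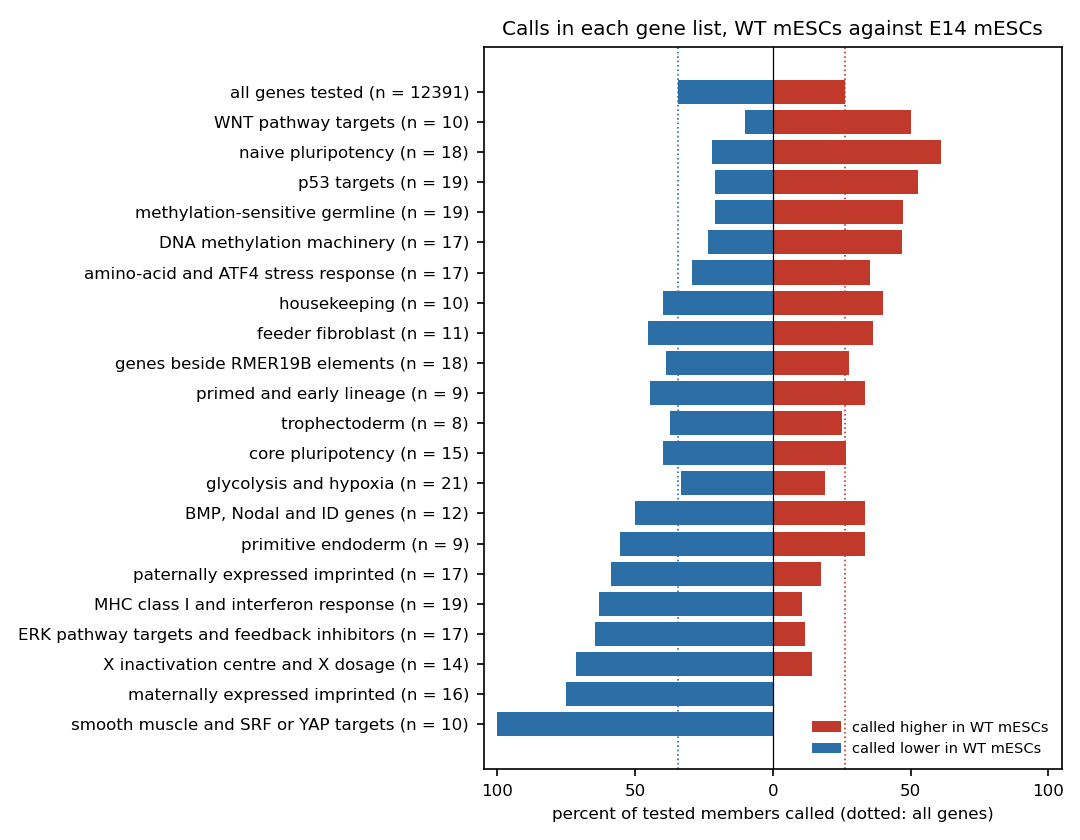
Percent of tested members called higher (right) and lower (left) in WT than in E14 mESCs, 1 row per list with at least 8 tested genes and its number of tested members, with all 12391 genes as the top row and as dotted lines. The smooth muscle list is wholly lower, maternally expressed imprinted genes have no member called higher, and the dotted lines mark 26.3% higher and 34.3% lower over all genes. The differences between lists and all genes were not tested.

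Genes of the DNA methylation machinery were mixed in direction, with 8 of 17 higher and 4 lower, beside 26.3% and 34.3% of all genes. *Dnmt3l* (chromosome 10, 77504692 to 77526367), the cofactor of de novo methylation, had 20.6, 32.3 and 26.0 in WT mESCs against 266, 273 and 272 in E14 mESCs (log2FC -3.33 ± 0.15, adjusted p = 1.52e-05). *Dnmt3b*, a de novo methyltransferase chosen after its values were seen, had 170, 83.8 and 174 in WT mESCs against 512, 499 and 509 in E14 mESCs (log2FC -1.90). All WT libraries were below E14 for both. *Tet2*, which oxidizes methylated cytosine, had 316, 248 and 302 in WT mESCs against 86.9, 82.9 and 84.6 in E14 mESCs (log2FC 1.75). The maintenance genes *Dnmt1* and *Uhrf1* rose by smaller amounts, a log2FC of 0.43 and 0.63, and *Zfp57*, which guards imprints, by 0.86. Leaving out any E14 library left 2 of the list lower. DNA methylation was not measured in these libraries.

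Germline genes whose promoters are normally methylated in somatic cells were higher in 9 and lower in 4 of 19 tested, with 6 higher by at least 2-fold (median log2FC 0.36). Over all genes, 26.3% were higher, 34.3% lower and 5.77% higher by at least 2-fold. Among the 17 at 1 or more in all 6 libraries, 7 were higher and 4 lower. *Hormad1*, a protein of the meiotic chromosome axis, had 49.8, 37.6 and 42.4 in WT mESCs against 5.03, 5.64 and 4.71 in E14 mESCs (log2FC 2.85 ± 0.12, adjusted p = 1.07e-05). *Dazl*, an RNA-binding protein of germ cells, had 40.9, 31.0 and 23.7 in WT mESCs against 6.30, 4.66 and 4.53 in E14 mESCs. *Stra8*, the switch to meiosis that retinoic acid induces, had 30.6, 12.5 and 34.9 in WT mESCs against 0.635, 0.777 and 0.698 in E14 mESCs. None of these overlapped between the groups, and *Stra8*, which passed the filter through WT libraries alone, had to differ. *Tuba3a*, a tubulin of the testis, had 19.4, 23.3 and 15.7 in WT mESCs against 4.39, 4.09 and 3.20 in E14 mESCs. *Sycp3*, a lateral element of the synaptonemal complex, was lower, with 8.74, 8.13 and 6.37 in WT mESCs against 44.9, 44.8 and 41.3 in E14 mESCs.

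Several such promoters carry TTCCCGCC, the letters of an E2F6-type element. On either strand it stood in 5 of 26 windows of the germline list (4 of 21 genes matched of 23, *Ddx4*, *Hormad1*, *Slc25a31* and *Tuba3a*), against 2.19% of all 32851 windows (720). The windows of *Hormad1* (chr3:95559427-95559726, plus strand) and *Tuba3a* (chr6:125286032-125286331, minus strand) are shown as those of the members that were called, with the element in capitals, 96 and 120 bases before the start site. In *Hormad1* it lies on the other strand and reads as its reverse complement. The match says nothing of binding or methylation there.
Hormad1: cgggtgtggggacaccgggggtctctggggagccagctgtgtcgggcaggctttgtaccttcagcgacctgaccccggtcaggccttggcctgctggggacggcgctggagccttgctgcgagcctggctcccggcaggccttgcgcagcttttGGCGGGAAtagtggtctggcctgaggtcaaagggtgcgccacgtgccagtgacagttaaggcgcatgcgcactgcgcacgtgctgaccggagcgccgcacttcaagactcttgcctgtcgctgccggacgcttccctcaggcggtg
Tuba3a: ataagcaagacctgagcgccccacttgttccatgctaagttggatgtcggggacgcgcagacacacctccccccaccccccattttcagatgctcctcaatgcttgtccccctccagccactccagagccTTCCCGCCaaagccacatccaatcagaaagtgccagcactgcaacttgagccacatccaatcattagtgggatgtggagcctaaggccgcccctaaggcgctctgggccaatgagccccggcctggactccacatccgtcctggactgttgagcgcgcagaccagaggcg

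Imprinted genes are expressed from a single parental copy, and their imprints are known to drift in cultured mESCs. Of 16 maternally expressed genes tested, 12 were lower and none higher (median log2FC -0.77), beside 34.3% and 26.3% of all genes. Without WT library 2 the count was 14 lower and 1 higher. *Calcr* and *Zim1* passed the filter through E14 libraries alone and so had to differ. Among the 13 at 1 or more in all 6 libraries, 9 were lower and none higher. *Meg3*, a long noncoding RNA, had 84.7, 43.4 and 60.7 in WT mESCs against 207, 207 and 215 in E14 mESCs (log2FC -1.77, adjusted p = 0.000739). *Grb10*, an adaptor that dampens insulin signalling, had 189, 108 and 166 in WT mESCs against 409, 406 and 403 in E14 mESCs. *Phlda2*, which restrains placental growth, had 9.74, 22.9 and 12.8 in WT mESCs against 60.04, 59.7 and 61 in E14 mESCs. WT libraries varied among themselves in these genes, and all of them lay below all E14 libraries. *Calcr*, the calcitonin receptor, had 0.158, 0 and 0.110 in WT mESCs against 11.7, 13.7 and 13.2 in E14 mESCs.

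Of 17 paternally expressed genes, 3 were higher and 10 lower (median log2FC -0.75), beside 26.3% and 34.3% of all genes. Among the 15 at 1 or more in all 6 libraries, 3 were higher and 8 lower. *Plagl1* (chromosome 10, 12810497 to 12851500), a zinc-finger regulator of other imprinted genes, had 61.2, 40.9 and 87.4 in WT mESCs against 1.53, 1.86 and 2.33 in E14 mESCs (log2FC 4.41 ± 0.27, adjusted p = 4.42e-05). *Peg12* was higher by a log2FC of 2.17. *Inpp5f*, a lipid phosphatase with an imprinted transcript, had 3.58, 3.69 and 2.86 in WT mESCs against 33.5, 32.0 and 33.9 in E14 mESCs, and *Impact*, a regulator of the amino-acid sensor GCN2, had 141, 102 and 184 in WT mESCs against 340, 341 and 343 in E14 mESCs. The directions within this list were therefore opposite, and averaging the similar libraries left 5 lower. *Peg10* and *H19*, chosen after their values were seen, varied widely within WT mESCs. *Peg10* had 211, 36.8 and 430 in WT mESCs against 390, 391 and 378 in E14 mESCs, and *H19* had 33.1, 5.24 and 78.1 in WT mESCs against 7.67, 7.72 and 7.91 in E14 mESCs. Neither passed the test (adjusted p = 0.2 and 0.163).

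Y-linked reads split the WT libraries. *Ddx3y*, a Y-linked RNA helicase, had 63.8, 43.1 and 0.110 in WT mESCs against 95.3, 96.9 and 93.4 in E14 mESCs (adjusted p = 0.159). *Eif2s3y*, a translation factor gene, had 22.3, 38.9 and 0.0549 in WT mESCs against 109, 113 and 110 in E14 mESCs, and *Uty* had 34.3, 23.2 and 0.0549 in WT mESCs against 45.3, 46.6 and 43.8 in E14 mESCs. Reads of these genes were thus present in WT libraries 1 and 2 below the E14 level and nearly absent in WT library 3. *Usp9y* was the Y-linked gene that passed the test, with 0.105, 0.0535 and 0 in WT mESCs against 4.28, 4.87 and 4.30 in E14 mESCs (log2FC -2.38). It passed the filter through E14 libraries alone and so had to differ. Without WT library 3, 4 Y-linked genes were lower. Of the 14 tested genes of the X inactivation centre and X dosage, 10 were lower and 2 higher, beside 34.3% and 26.3% of all genes. With similar libraries averaged, 3 were lower and 0 higher. *Rlim*, an X-linked ubiquitin ligase that activates *Xist*, had 132, 115 and 133 in WT mESCs against 364, 373 and 369 in E14 mESCs, and *Klhl13*, an X-linked gene tied to the exit from naive pluripotency, had 88.3, 49.3 and 95.4 in WT mESCs against 371, 372 and 371 in E14 mESCs. *Dusp9*, an X-linked ERK phosphatase, was higher, with 85.6, 148 and 104 in WT mESCs against 47.6, 46.4 and 52.5 in E14 mESCs. Over chromosome X, 79 (17.6%) of 448 genes were higher and 213 (47.5%) lower, beside 26.3% higher and 34.3% lower over all genes. The median log2 difference from the E14 mean on chromosome X was -0.15, -0.20 and -0.14 in WT libraries 1, 2 and 3, with no split like that of the Y-linked genes.

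Whole chromosomes differed among the WT libraries too. For each library, the median over the genes of a chromosome was taken of the log2 difference from the E14 mean. On chromosome 8 it was -0.47 in WT library 1, 0.12 in WT library 2 and -0.49 in WT library 3. Chromosome 8 was also cut into 8 segments of 65 or 66 genes each. The median was negative in every segment in WT libraries 1 and 3. Of 684 genes tested there, 61 (8.92%) were higher and 265 (38.7%) lower, beside 26.3% higher and 34.3% lower over all genes, so that the share called lower was near that of all genes and the share called higher was below it. On chromosome 6 the medians were -0.10, 0.40 and -0.10, and on chromosome 3 they were 0.38, -0.02 and 0.30. WT library 2 was therefore on another level than WT libraries 1 and 3 on each of these chromosomes. In the other libraries, chromosome 8 was at -0.52, -0.49 and -0.50 in KO mESCs and at -0.09, -0.08 and -0.11 in OE mESCs. The described genes *Dusp4*, *Mmp2* and *Kbtbd11* lie on chromosome 8, *Nanog*, *Stra8*, *Asns*, *Tuba3a*, *Calcr* and *Peg10* on chromosome 6, and *Sox2*, *Nes*, *Spry1*, *Tet2*, *Hormad1*, *Lef1*, *Slc39a8*, *Gbp2*, *Arhgef38* and *Slc25a31* on chromosome 3, and their fold changes include these shifts. Copy number was not measured, and its part in the result was not tested.

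**Figure D4:**
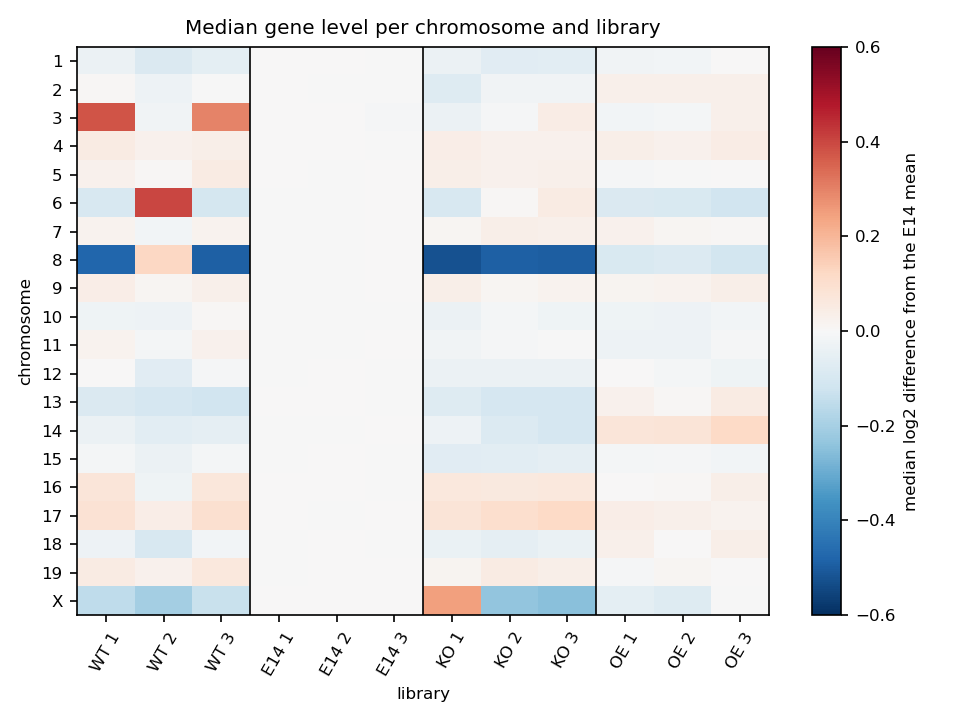
Median log2 difference from the E14 mean over the genes of each of 20 chromosomes (rows) in the 12 mESC libraries (columns), as a colour scale in log2 units. WT libraries 1 and 3 are low on chromosome 8 (-0.47 and -0.49) and high on chromosome 3 (0.38 and 0.30), WT library 2 is high on chromosome 6 (0.40), and KO libraries are low on chromosome 8.

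Genes of antigen presentation were among those with lower levels in WT mESCs. Of 19 MHC class I and interferon response genes tested, 12 were lower, 2 higher and 5 not called (median log2FC -1.10), beside 34.3% lower and 26.3% higher over all genes. Since 4 of the 19 passed the filter through a single group, the count among the 13 at 1 or more in all 6 libraries is also given, 7 lower and 2 higher. *H2-K1* (chromosome 17, 34132962 to 34137278), the heavy chain that presents peptides to T cells, had 7.43, 7.76 and 7.52 in WT mESCs against 36.0, 36.7 and 36.4 in E14 mESCs (log2FC -2.13 ± 0.06, adjusted p = 3.33e-06). *B2m*, its light chain, had 8.43, 8.61 and 7.74 in WT mESCs against 34.3, 34.8 and 32.2 in E14 mESCs, and *H2-D1*, another heavy chain, had 4.64, 5.19 and 5.71 in WT mESCs against 17.1, 16.6 and 17.6 in E14 mESCs. These 3 genes kept a narrow range within each group. *Psmb8*, a subunit of the immunoproteasome, and *Gbp2*, a GTPase that interferon induces, had log2FC of -1.81 and -3.33. Both passed the filter through E14 libraries alone and so had to differ.

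Stress and metabolic genes were mixed, and each list count here stands beside 26.3% higher and 34.3% lower over all genes. Of 19 p53 targets, 10 were higher and 4 lower, and 6 and 1 with similar libraries averaged. *Cdkn1a*, the cell-cycle inhibitor p21, had 179, 180 and 189 in WT mESCs against 49.8, 47.7 and 51.1 in E14 mESCs (log2FC 1.86 ± 0.05, adjusted p = 2.67e-06), and *Pmaip1*, a pro-apoptotic protein, had 68.4, 80.0 and 61.2 in WT mESCs against 27.3, 29.6 and 26.6 in E14 mESCs. *Bbc3*, another pro-apoptotic target, was lower (log2FC -0.77). Of 17 genes of the ATF4 response to amino-acid shortage, 6 were higher and 5 lower, and 0 lower with similar libraries averaged. *Asns*, asparagine synthetase, had 967, 1275 and 852 in WT mESCs against 221, 217 and 214 in E14 mESCs (log2FC 2.22), the largest fold change in this list, and *Atf5*, a factor that ATF4 induces, had 36.6, 44.6 and 38.3 in WT mESCs against 13.8, 14.6 and 13.6 in E14 mESCs (log2FC 1.44). Of 21 glycolysis and hypoxia genes, 4 were higher and 7 lower, and without WT library 2 the count was 8 and 8. *Pdk1*, which keeps pyruvate out of mitochondria, had 104, 86.5 and 111 in WT mESCs against 297, 298 and 310 in E14 mESCs, and *Slc16a3*, a lactate exporter, had 84.3, 55.5 and 75 in WT mESCs against 190, 188 and 197 in E14 mESCs. *Ldha*, lactate dehydrogenase, was lower (log2FC -0.79), while *Gpi1* and *Vegfa* were higher (log2FC 0.86 and 1.24). Of 10 housekeeping genes, 4 were higher and 4 lower, with a median log2FC of 0.01 and none changed by 2-fold. Leaving out WT library 3 or any E14 library left 2 of them lower.

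Further genes belong to the biology of ZFP708 itself. Zinc-finger genes near *Zfp708* were called in both directions or not called, where 26.3% of all genes were higher and 34.3% lower. *Zfp708* itself did not pass the test, and neither did *Rsl1* and *Zfp58* (adjusted p = 0.667 and 0.562). Of those described here, *Zfp429* passed the filter through WT libraries alone and so had to differ. *Zfp429* had 5.37, 3.80 and 4.17 in WT mESCs against 0.370, 0.155 and 0.233 in E14 mESCs (log2FC 2.11 ± 0.14, adjusted p = 5.47e-05), and *Zfp874a* had 21.2, 21.6 and 22.4 in WT mESCs against 8.46, 8.03 and 9.42 in E14 mESCs. *Zfp729b* was lower, with 27.0, 23 and 25.7 in WT mESCs against 65.7, 67.8 and 68.4 in E14 mESCs. Their copies are similar in sequence, so reads may be shared among them. Of the 18 genes that the study named beside RMER19B elements bound by ZFP708, 5 were higher and 7 lower (median log2FC 0.00). Among the 17 at 1 or more in all 6 libraries, 5 were higher and 6 lower. Without WT library 2, 9 of the 18 were higher and 8 lower. That list was chosen by the study with the WT libraries among its samples and is not independent of them. *Tcf15*, a factor of epiblast priming, had 6.85, 7.81 and 7.80 in WT mESCs against 35.9, 33.3 and 34.4 in E14 mESCs. *Wdfy1* had 54.5, 33.4 and 9.01 in WT mESCs against 88.6, 90.6 and 91.3 in E14 mESCs (log2FC -1.77, adjusted p = 0.0384). WT libraries were widely spread, and its call was lost without WT library 2 (adjusted p = 0.136), without any E14 library (at least 0.0956) and in both count models (0.0585 with edgeR and 0.058 with DESeq2).

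The direction of these differences was then counted in 6 libraries that the comparison did not use, KO mESCs against OE mESCs, which set newly derived lines beside E14 cells once more. There 8658 (70.4%) of 12307 genes differed, 4054 (32.9%) higher and 4604 (37.4%) lower in KO mESCs, and by at least 2-fold 1122 (9.12%) were higher and 1113 (9.04%) lower. Here too libraries stood apart. KO library 1 had a mean chi-square of 10.4 and 12 against KO libraries 2 and 3, beside 1.68 between those, and OE library 3 had 6.96 and 7.16 against OE libraries 1 and 2, beside 1.25. KO library 1 had no reads of *Ddx3y* and *Eif2s3y*, and its chromosome X median was 0.24, beside -0.24 and -0.25 in KO libraries 2 and 3. Without KO library 1, 4124 genes were higher and 4715 lower, and without OE library 3 the counts were 4085 and 4514. Loss and excess of ZFP708 also differ in that comparison and cannot be told apart from the origin of the cells. *Zfp708* was at 722, 708 and 530 in OE mESCs. Of the 3263 genes higher in WT than in E14 mESCs, 3242 were tested there, 3038 (93.7%) had the same sign, and 2632 (81.2%) were also called higher, while 53 were called lower. A positive sign was found in 47.4% of all genes tested there. Of the 4249 genes lower in WT mESCs, 3987 were tested, 3622 (90.8%) had the same sign, where 52.6% of all genes were negative, and 3106 (77.9%) were also called lower, while 132 were called higher. Among genes changed by at least 2-fold, the sign was the same in 699 of 702 higher genes (99.6%) and 1148 of 1218 lower genes (94.3%). Shared higher calls were 80.7% of those in the WT and E14 comparison and 64.9% of those in the KO and OE comparison, and shared lower calls were 73.1% and 67.5%.

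**Figure D5:**
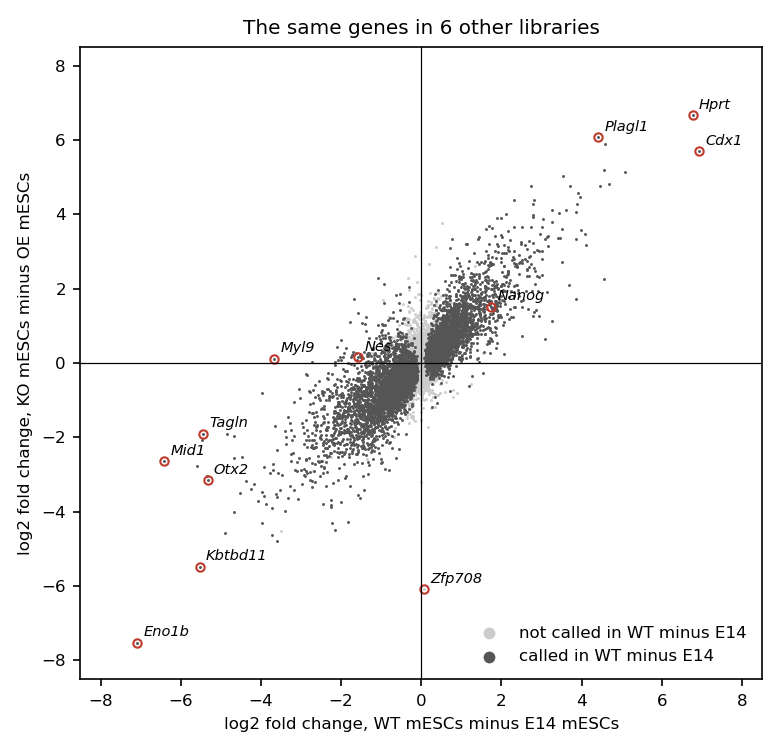
Log2 fold change of KO over OE mESCs (vertical axis) against that of WT over E14 mESCs (horizontal axis), 1 point per gene tested in both, dark where called in WT against E14 mESCs, with some genes circled and named. Most genes called in WT against E14 mESCs lie in the quadrants of equal sign, 93.7% of the higher and 90.8% of the lower ones.

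The genes named above for the largest changes in WT against E14 mESCs all had the same sign and were called in KO against OE mESCs. *Cdx1* had a log2FC of 5.70 there, *Plagl1* 6.08, *Eno1b* -7.52 and *Kbtbd11* -5.47, sizes close to or above those in WT mESCs for *Plagl1*, *Eno1b* and *Kbtbd11*. Other genes had smaller values there. *Mid1* had -2.65 in KO against OE mESCs beside -6.42 in WT against E14 mESCs, *Slc39a8* -2.08 beside -5.48, and *Tagln* -1.90 beside -5.45. *Tagln* had 0.597, 1.19 and 0.573 in KO mESCs against 3.43, 3.67 and 12.8 in OE mESCs, and *Myl9* had 0.922, 1.70 and 1.90 in KO mESCs against 1.10, 1.17 and 1.57 in OE mESCs. The OE libraries were thus far below the E14 range for both genes, while KO mESCs were near WT mESCs. Of the smooth muscle list, 5 of 9 genes were lower and 1 higher there. *Myl9* had a log2FC of 0.12 (adjusted p = 0.57) and *Ctgf* 0.44 (adjusted p = 0.219) in KO against OE mESCs. Among maternally expressed imprinted genes 13 of 15 were lower and none higher there, and among the ERK genes 10 of 17 were lower and 2 higher. *Nanog*, *Tfcp2l1* and *Tbx3* had log2FC of 1.52, 1.68 and 1.92, *Dnmt3l* -3.64 and *Otx2* -3.16, all called. The difference between the comparisons was not tested for any of these genes. Across libraries, WT mESCs correlated more closely with KO mESCs (0.963 to 0.973) than with E14 mESCs (0.917 to 0.921), and E14 mESCs correlated at 0.973 to 0.976 with OE mESCs. These are correlations of log2 values across genes and carry no test.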

How the data were processed

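Poly(A) RNA of mESCs was sequenced by the study as stranded single reads. The authors deposited a signal table of normalized counts: reads aligned to mm9 with STAR 2.4.2a, counted by strand per Ensembl gene with HTSeq, and divided by DESeq2 size factors of the 61 libraries. Its 18504 rows name 18396 genes, and 108 repeat rows were dropped, while 26 symbols turned into dates were restored from the identifier. All values above 0 were whole multiples of 1 read (100% within 0.01), so reads were recovered for edgeR and DESeq2. No sample column was left unused. Groups came from the labels.

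limma (trended, robust, two-sided) was fitted to log2(value + 1) over the 6 libraries of a comparison, for genes at 1 or more in at least 3 of them, with Benjamini-Hochberg adjustment at 0.05. Named genes were the 12 largest changes and 8 smallest p-values per direction among genes with groups that do not overlap and a mean of at least 20 in the higher group, without predicted genes and pseudogenes, up to 6 called members of each of 25 lists, genes that define a list, and zinc-finger genes within 1 Mb of *Zfp708*. One gene chosen by this rule is not reported here. Members and lists were chosen with earlier results of these data known. Coordinates are mm9, as Ensembl gave them, and promoter windows are GRCm38.p6. Alternatives were a pseudocount of 0.1 or 5, other filters (none, or 10), scalings, spreads, count models, thresholds, averaged similar libraries, the replicate number as a block, and each library left out. The run with averaged libraries was fitted on the WT, E14, KO and OE mESC groups together. E14 mESCs had 1 sample in it, and the spread came from the other groups. Scripts were tested on simulated data. R 4.3.3, limma 3.58.1, edgeR 4.0.16, DESeq2 1.42.0, Python 3.11.15, pandas 2.3.3, numpy 2.4.6 and matplotlib 3.10.9 were used.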

Additional observations from a re-analysis of the deposited data

How the results depend on the processing

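No gene called in WT against E14 mESCs was called in the opposite direction under any alternative run. Among the 12391 genes, 3263 higher and 4249 lower became 534 and 983 with a spread pooled across the 12 groups, 1393 and 1978 with the most similar libraries averaged (E14 libraries, WT 1 and 3), and 715 and 1372 with a 2-fold minimum. Leaving out a library gave 2648 to 4308 higher and 3465 to 5384 lower, the most without WT library 2. edgeR called 3764 and 3727 and DESeq2 3736 and 3714, and quantile normalization 3853 and 3716. A filter at 10 left 2590 and 2844 of 9089 genes. In KO against OE mESCs, 4054 and 4604 became 2693 and 2910 with similar libraries averaged and 1122 and 1113 with a 2-fold minimum, and 3708 to 4124 and 4179 to 4715 when a library was left out. Of 184 named genes tested, 168 were called, and 87 kept call and direction in every alternative run. The pooled spread ended 75 of these calls and averaging 29. In the lists, smooth muscle genes lower went to 9, maternally expressed imprinted genes to 9 and MHC and interferon genes to 10 when similar libraries were averaged. The cause was not tested.

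The replicate numbers did not pair the libraries: deviations of same-numbered WT and E14 libraries correlated between -0.0258 and 0.016. With the replicate block, 2973 genes were higher and 3923 lower in WT mESCs, and in KO against OE mESCs 3973 and 4510. Depth limits genes near 1 normalized count, where 1 read is worth 0.0441 to 0.0629 across the WT, E14, KO and OE mESC libraries.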
